A study of Mus musculus with 4 samples.

Results

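The Bcl2 family decides whether a cell keeps its mitochondria intact or dies by apoptosis, and 10 of its genes were examined here in early thymic progenitors (ETP), the most immature T lineage progenitors of the thymus. The members were listed by symbol, with earlier results of these data known. Each had its own line in a table of 23361 genes. They comprise 6 anti-apoptotic genes (*Bcl2*, *Bcl2l1*, *Mcl1*, *Bcl2a1a*, *Bcl2a1b* and *Bcl2a1d*) and 4 pro-apoptotic genes (*Bcl2l11*, *Pmaip1*, *Bax* and *Bak1*). All 10 passed the filter on low values. RNA was sequenced from 4 libraries of sorted cells from female C57BL6 mice, 2 from old mice of 72 weeks and 2 from young mice of 4 to 6 weeks. The authors' table names the old condition 20m. The labels name no transgene, mutation or treatment in either group. ETP were sorted as Lin-, CD44+, CD25- and CD117+ thymocytes. No source states if the 2 libraries of an age are from different animals or pools, and the p-values below thus describe the scatter of these 4 libraries, part or all of which can be technical.

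Anti-apoptotic Bcl2 proteins hold the effectors Bax and Bak in check at the mitochondrial outer membrane, and BH3-only proteins such as Bim and Noxa bind the anti-apoptotic proteins and release that restraint. Bax and Bak then form pores, cytochrome c leaves the mitochondria and caspases are activated. In the thymus this balance is known for setting the survival of progenitors that depend on cytokines such as interleukin 7, and for the death of thymocytes that fail selection. Mcl1 is known to be needed by hematopoietic progenitors, and Bcl2a1 (A1) is a target of NF-kappaB in blood cells.

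The deepest library held 16658864 fragments assigned to genes and the shallowest 4839341. The old libraries, replicates 1 and 2, had 11816478 and 4839341 fragments, against 16658864 and 6414915 in the young libraries. In CPM, counts were scaled to a common library size, so that CPM compares a gene between libraries. TPM are the authors' length-scaled values brought to the same sum in each library, and only TPM compares levels between genes. Markers of cell types were examined. The 8 ETP markers summed to 1371 and 1662 TPM in old libraries and 1405 and 1985 TPM in young libraries. They include *Kit* (CD117) and *Cd44*, on which the cells were sorted, so this sum is not independent of the sort. The 10 markers of later thymocytes summed to 58.8 and 143 TPM in old libraries and 57.8 and 109.95 TPM in young libraries. Of these, *Ptcra*, which marks pre-T cells, was at 0 in all 4, while *Cd3e*, a gene for a CD3 subunit, had 15.3 and 57.3 TPM in old libraries and 4.69 and 4.97 TPM in young libraries. All 12 markers of conventional dendritic cells were higher in both old libraries than in either young library, and none of them was at 0. Of the 10080 tested genes, 16.1% were higher in this way. The sum of these markers was 9635 and 36359 TPM in old libraries, against 979 and 2348 TPM in young libraries. In bulk RNA such as this, more or fewer cells of a type and more or less RNA per cell cannot be told apart.

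Among the 10 members, 9 had a higher estimate in old ETP and 1 a lower estimate, where 46.6% of the 10080 tested genes had a higher and 53.4% a lower estimate. This count is of the listed members and not of the whole family. Of the other Bcl2 family genes 9 were tested, and 2 had a higher and 7 a lower estimate (median log2 fold change -0.14). In normalized CPM, old and young libraries did not overlap for 7 members, all higher in old (background 16.1%), and overlapped for *Bcl2*, *Bcl2l1* and *Bcl2l11*. The median log2 fold change, old over young, was 0.99 over the 10 members and -0.03 over all tested genes. The 3 *Bcl2a1* copies are near-identical in sequence and can share reads, yet they count as 3 members here. The counts and the median of the members are thus not those of 10 independent genes. An unadjusted p under 0.05 was reached by 6 members, all higher (background 4.65%), and by 0 that were lower (background 0.913%). After Benjamini-Hochberg adjustment over all tested genes, edgeR's quasi-likelihood test called 0 of the 10 members (background 0.0%), with a smallest adjusted p of 0.325 among them. DESeq2 called 4 members on the same counts, *Bcl2a1a*, *Bcl2a1b*, *Bcl2a1d* and *Pmaip1*, all as higher, where it called 2.08% of tested genes as higher and 0.149% as lower. With no filter on low values edgeR called the same 4 members, where it called 2.77% of 17112 genes as higher. With 2 libraries against 2, an exact permutation test cannot give a two-sided p below 0.333.

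**Figure D1:**
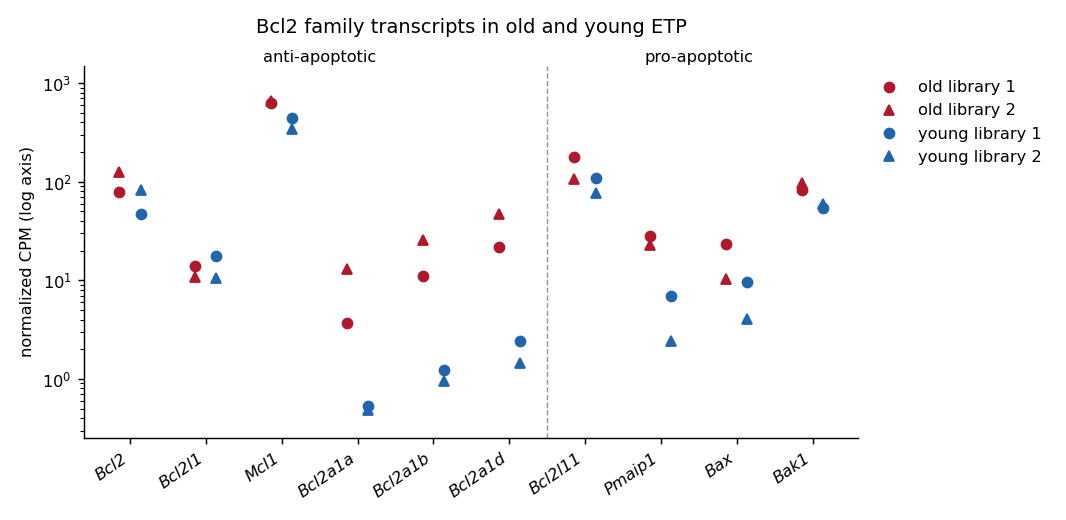
Normalized CPM on a log axis for each member in each library, with old libraries (red) left of young libraries (blue), circles for replicate 1 and triangles for replicate 2. The *Bcl2a1* copies and *Pmaip1* have the widest gaps between the ages, while the points of *Bcl2*, *Bcl2l1* and *Bcl2l11* overlap.

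Among the anti-apoptotic genes the *Bcl2a1* copies stood furthest from 0. A1 is an anti-apoptotic relative of Bcl2 that mature blood cells make upon activation, and the mouse carries several near-identical copies of its gene. The 3 copies among the members lie on chromosome 9 of GRCm38, *Bcl2a1a* at chr9:88956900-88962419 and *Bcl2a1b* at chr9:89199209-89207827 on the forward strand, and *Bcl2a1d* at chr9:88723285-88731914 on the reverse strand. Each has 2 exons. The first 120 coding bases are shown because they bear on how far reads can separate the copies. They are taken from the GENCODE annotation of GRCm38, with capitals at the 7 positions of the stretch where the copies differ.
Bcl2a1a, chr9:88957051-88957170, forward strand: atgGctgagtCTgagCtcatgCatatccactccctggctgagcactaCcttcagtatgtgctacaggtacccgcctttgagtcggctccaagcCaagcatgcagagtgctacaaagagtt
Bcl2a1b, chr9:89199360-89199479, forward strand: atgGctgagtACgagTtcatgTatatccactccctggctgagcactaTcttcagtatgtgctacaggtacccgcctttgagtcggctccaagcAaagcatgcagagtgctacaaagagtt
Bcl2a1d, chr9:88731600-88731719, reverse strand: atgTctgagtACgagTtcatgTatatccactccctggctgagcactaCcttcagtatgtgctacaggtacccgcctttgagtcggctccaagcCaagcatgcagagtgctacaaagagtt

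Over their 516 coding bases the copies differ at 12 positions. *Bcl2a1a* and *Bcl2a1b* are 97.9% identical, *Bcl2a1a* and *Bcl2a1d* 98.6%, and *Bcl2a1b* and *Bcl2a1d* 98.8%. Counted from 1 at the A of the start codon, and with the base of *Bcl2a1a* first, *Bcl2a1d* differs from *Bcl2a1a* by G4T, C11A, T12C, C16T, C22T, T337G and A407G. Of all 100-base windows of the transcript, 43.5% in *Bcl2a1a*, 31.1% in *Bcl2a1b* and 54.7% in *Bcl2a1d* also occur without a mismatch in another copy. A single read from such a window cannot be placed on 1 copy by its bases, although its mate may place it, so these shares are not shares of fragments. The split between the copies is therefore uncertain. Their sum does not depend on that split, but it does depend on whether fragments with several alignments were kept, which no source states. *Bcl2a1b* also shares 49.1% of its exon bases with *Gm29094*, an annotated gene on the same strand.

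*Bcl2a1d* had 262 and 215 fragments in old libraries, against 41 and 9 in young libraries, or 21.8 and 46.8 normalized CPM against 2.40 and 1.44. *Bcl2a1b* had 132 and 117 fragments in old libraries and 21 and 6 in young libraries, or 11.0 and 25.5 against 1.23 and 0.961 normalized CPM. *Bcl2a1a* had 44 and 60 fragments in old libraries and 9 and 3 in young libraries, or 3.66 and 13.1 against 0.527 and 0.481 normalized CPM. For each copy both old libraries lay above both young libraries, and old replicate 2 was the highest of the 4. The log2 fold changes in edgeR were 4.09 ± 0.57 (SE) for *Bcl2a1d*, 4.00 ± 0.61 for *Bcl2a1b* and 3.97 ± 0.84 for *Bcl2a1a*. Their adjusted p-values were 0.325, 0.325 and 0.376 in edgeR's quasi-likelihood test, and 1.7e-08, 1.9e-06 and 0.0014 in DESeq2. The fragments of both libraries of an age together gave a ratio of old over young of 13.4 for *Bcl2a1d* (95% exact interval 9.99 to 18.3), 12.9 for *Bcl2a1b* (8.69 to 20.04) and 12.2 for *Bcl2a1a* (6.68 to 24.3). These intervals cover counting error only and not the spread between libraries.

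The copies had similar shares of their sum at both ages. *Bcl2a1d* took 59.8% (exact Clopper-Pearson 95% interval 55.1 to 64.4%) and 54.8% (49.8 to 59.8%) of the fragments of the 3 copies in old libraries, against 57.7% (45.4 to 69.4%) and 9 of 18 fragments (26.0 to 74.0%) in young libraries. The shares of *Bcl2a1b* were 30.1% and 29.8% in old and 29.6% and 33.3% in young libraries, and those of *Bcl2a1a* were 10.05% and 15.3% in old and 12.7% and 16.67% in young libraries. The intervals of the young libraries are wide, since only 71 and 18 fragments fell on the 3 copies there. Summed over the copies, the normalized CPM was 36.4 and 85.4 in old libraries and 4.16 and 2.88 in young libraries, a log2 fold change of 4.08 ± 0.56 (edgeR, adjusted p = 0.336). The fourth copy, *Bcl2a1c*, was listed at 0 in all 4 libraries. Without old replicate 1, edgeR called all 3 copies (adjusted p = 0.0051, 0.0075 and 0.014 for *Bcl2a1d*, *Bcl2a1b* and *Bcl2a1a*), where it called 2.16% of tested genes as higher. Leaving out any other library gave 0 called members. Without old replicate 2 the log2 fold changes were 3.41, 3.25 and 2.79 for *Bcl2a1d*, *Bcl2a1b* and *Bcl2a1a*.

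The sequence before the starts of the 3 copies is also shown. The stretch was cut from RefSeq promoters (GRCm38.p6) aligned over the copies, and capitals mark bases that differ between copies or are missing from 1 of them.
Bcl2a1a, chr9:88956714-88956855, forward strand: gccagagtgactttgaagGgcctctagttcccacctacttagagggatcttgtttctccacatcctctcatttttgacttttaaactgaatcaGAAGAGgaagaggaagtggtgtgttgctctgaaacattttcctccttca
Bcl2a1b, chr9:89199023-89199164, forward strand: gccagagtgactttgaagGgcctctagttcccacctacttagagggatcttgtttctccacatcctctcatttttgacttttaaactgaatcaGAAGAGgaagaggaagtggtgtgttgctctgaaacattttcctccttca
Bcl2a1d, chr9:88731915-88732050, reverse strand: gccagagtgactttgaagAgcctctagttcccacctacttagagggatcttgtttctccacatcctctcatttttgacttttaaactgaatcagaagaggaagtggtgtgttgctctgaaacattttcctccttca

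Of the aligned positions, 135 were identical in all 3 copies and 7 differed, namely 1 base and a run that *Bcl2a1d* lacks. Both strands of the whole RefSeq promoters (250 bases before and 50 after each start) were searched for a motif named the NF-kappaB consensus, which occurred in 4.51% of 32851 promoters of all genes. It had 0 matches in the promoters of the 3 *Bcl2a1* copies and 1 in the 3 promoters of *Bcl2l1*. The purine-rich letters GAGGAA, the core of the PU box and chosen after the sequences had been seen, occurred in 28.3% of all promoters. They had 3 matches in *Bcl2a1a*, 4 in *Bcl2a1b* and 2 in *Bcl2a1d*, and 1 each in *Bcl2* and *Bak1*. No promoter of *Pmaip1* was among those searched. A match is a description of the letters and not of binding, and a count of 0 covers only the bases searched.

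*Mcl1* encodes a short-lived anti-apoptotic protein that binds both Noxa and Bim, and it had the highest level per length of the 10 members in every library. It lies on chromosome 3. Its level was 318 and 393 TPM in old libraries and 228 and 223 TPM in young libraries. In normalized CPM it was at 629.5 and 660.1 in old libraries, against 442 and 344 in young libraries. The ages did not overlap on either scale. Its log2 fold change was 0.71 ± 0.28 with an unadjusted p of 0.047 (edgeR, adjusted p = 0.886), so it was not called.

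*Bcl2*, the founding member of the family, encodes a protein that sustains lymphocyte survival downstream of cytokine receptors. It was at 78.2 and 126.1 normalized CPM in old libraries and 47.3 and 81.9 in young libraries. The higher young library lay above the lower old library, so the ages overlapped. Its log2 fold change was 0.66 ± 0.40 (edgeR, adjusted p = 0.999). *Bcl2l1* encodes Bcl-xL, which protects later thymocytes, and it was the only member with a lower estimate in old ETP. It had 14.0 and 10.9 normalized CPM in old libraries and 17.5 and 10.6 in young libraries. Each age spanned much of the same range, with a log2 fold change of -0.18 ± 0.41 (edgeR, adjusted p = 0.999). Without young replicate 1 this estimate changed sign, to 0.24. Per length, *Bcl2* exceeded *Bcl2l1* in every library, by 2.45 and 5.29 times in old and 1.16 and 3.25 times in young libraries.

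**Figure D2:**
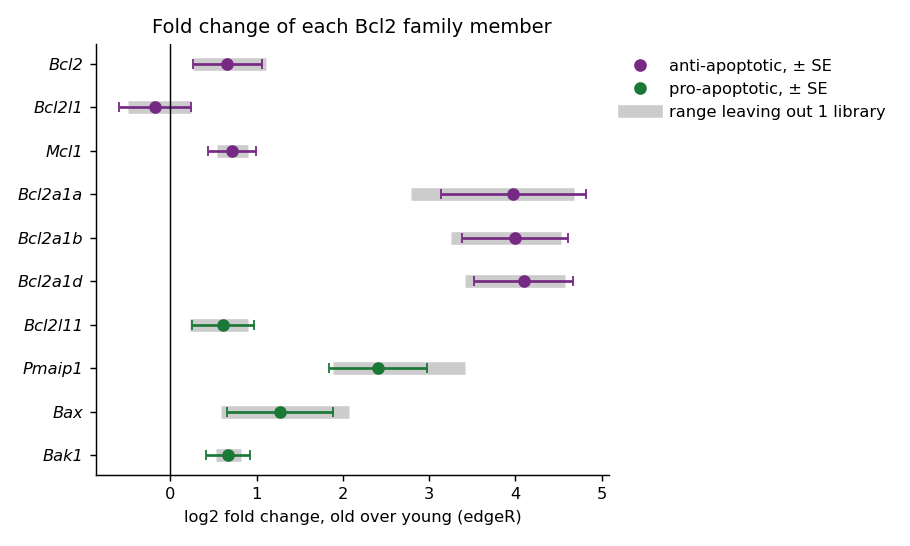
Log2 fold change of each member, old over young, from edgeR (points, with bars of 1 SE) and the range of estimates when each library in turn is left out (grey). The range of *Bcl2l1* spans 0, and those of the other 9 members lie above 0, furthest for the *Bcl2a1* copies and *Pmaip1*.

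Of the BH3-only genes, *Pmaip1* had the larger difference. It lies on chromosome 18 and encodes Noxa, which binds Mcl1 and A1 and promotes the turnover of Mcl1. It had 342 and 105 fragments in old libraries and 119 and 15 in young libraries. In normalized CPM this was 28.4 and 22.9 in old libraries and 6.96 and 2.40 in young libraries. Both old libraries lay above both young libraries, and the young libraries differed from each other more in proportion than the old ones did. The log2 fold change was 2.41 ± 0.57 with an unadjusted p of 0.0065. It was not called by edgeR (adjusted p = 0.410) and was called by DESeq2 (adjusted p = 0.0047). Leaving out each library in turn gave 1.88 (without young replicate 2) to 3.41 (without young replicate 1).

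*Bcl2l11* encodes Bim, a BH3-only protein that binds every anti-apoptotic member and drives the death of autoreactive thymocytes. It was at 178.5 and 107 normalized CPM in old libraries and 109.8 and 76.9 in young libraries. On this scale old replicate 2 fell within the young range. In TPM it did not, with 61.4 and 44.7 in old libraries and 38.7 and 34.2 in young libraries. The log2 fold change was 0.61 ± 0.36 (edgeR, adjusted p = 0.999). Of other BH3-only genes, *Bid* was at 49.0 and 66.4 TPM in old libraries and 59.9 and 66.5 TPM in young libraries, while several were low or at 0. *Bbc3*, which encodes Puma, had 30 and 6 fragments in old libraries and 27 and 5 in young libraries and did not pass the filter on low values. *Bik*, another BH3-only gene, was at 0 in all 4 libraries.

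Both effectors had higher values in old ETP, by less than the *Bcl2a1* copies and *Pmaip1*. *Bak1*, on chromosome 17, encodes Bak, which sits in the mitochondrial membrane. It was at 82.8 and 97.2 normalized CPM in old libraries and 53.8 and 58.9 in young libraries, without overlap. Its log2 fold change was 0.67 ± 0.25 with an unadjusted p of 0.041 (edgeR, adjusted p = 0.840). *Bak1* shares 25.5% of its exon bases with *Ggnbp1* on the opposite strand, and reads of both genes could be mixed if strand was not used in counting, which no source states. *Bax*, on chromosome 7, encodes the effector that moves from the cytosol to mitochondria. It was at 23.1 and 10.2 normalized CPM in old libraries and 9.66 and 4.00 in young libraries, so that the lower old library barely exceeded the higher young one. Its log2 fold change was 1.27 ± 0.62 (unadjusted p = 0.088, adjusted p = 0.999 in edgeR). It was 0.58 without old replicate 1, 0.80 without young replicate 2 and 2.07 without young replicate 1. Per length, *Bax* was below *Bak1* in every library, at 0.776 and 0.284 times its level in old and 0.504 and 0.184 times in young libraries.

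The levels per length were then summed over each side of the family. Anti-apoptotic members summed to 463 and 741 TPM in old libraries and 271 and 277 TPM in young libraries. Pro-apoptotic members summed to 217 and 199 TPM in old libraries and 121 and 119 TPM in young libraries. Both sums were higher in each old library than in either young library. The anti-apoptotic side made up 68.1% and 78.9% of the family's level in old libraries, against 69.2% and 70.0% in young libraries. The young values lay between the old ones, and the means of 73.5 ± 7.63% in old and 69.6 ± 0.60% in young ETP (SD, n = 2 each) differed by 3.86 percentage points, less than the spread of the old libraries. Without the *Bcl2a1* copies the share was 62.0% and 69.6% in old and 68.1% and 69.2% in young libraries, and the difference of the means changed sign, to -2.84 percentage points. Without old replicate 2 it was -1.54 percentage points. These shares depend on which genes are summed, and other genes of the family were not in the sums. Among those left out, pro-apoptotic *Bid* was at 49.0 and 66.4 TPM in old and 59.9 and 66.5 TPM in young libraries. Anti-apoptotic *Bcl2l2* was at 11.6 and 18.1 TPM in old and 10.8 and 16.5 TPM in young libraries. The share with such genes added was not computed.

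**Figure D3:**
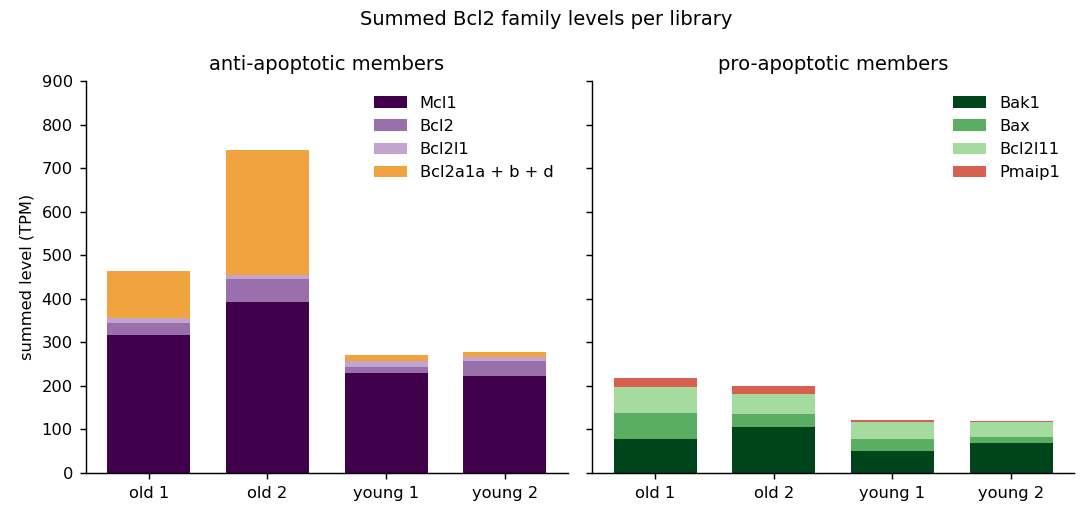
Summed TPM of the anti-apoptotic members (left) and the pro-apoptotic members (right) in each library, stacked by gene, with old libraries left of young libraries. The *Bcl2a1* copies make up 108 and 285 TPM of the anti-apoptotic sum in old libraries and 12.8 and 10.5 TPM in young libraries.

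The composition of each side was examined next. Within the anti-apoptotic sum, *Mcl1* made up 68.7% and 53.1% in old libraries and 84.3% and 80.3% in young libraries. The *Bcl2a1* copies made up 23.3% and 38.5% of it in old libraries and 4.74% and 3.80% in young libraries. Old and young libraries did not overlap in either share. Both are parts of the same sum, so a larger part from the copies lowers the share of *Mcl1*. The level of *Mcl1* itself was higher in old libraries (318 and 393 TPM) than in young libraries (228 and 223 TPM). Within the pro-apoptotic sum, *Pmaip1* made up 8.88% and 9.19% in old libraries and 4.01% and 1.75% in young libraries. The level of *Mcl1* per length was 16.5 and 21.5 times that of *Pmaip1*, its BH3-only partner, in old libraries, and 47.2 and 107 times in young libraries. *Bcl2* was at 0.428 and 1.16 times the level of *Bcl2l11* in old libraries and 0.412 and 0.984 times in young libraries, a ratio that differed within each age more than between ages. These ratios use the authors' length scaling and carry no test.

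Genes around the family were described from 6 lists. Of 16 other Bcl2 family genes 9 were tested, of which 2 had a higher and 7 a lower estimate, with a median log2 fold change of -0.14. Its genes with the highest level were *Bnip3l*, a mitophagy receptor, with a log2 fold change of -0.42 ± 0.29, and *Bid*, the BH3-only gene that links death receptors to mitochondria, with -0.07 ± 0.26. All 13 genes of the apoptosome, caspases and their inhibitors were tested, and 9 had a higher estimate (median 0.16). *Casp2*, an initiator caspase, was at -0.09 ± 0.26 and *Birc6*, an inhibitor of apoptosis, at -0.15 ± 0.33. Of the death receptor pathway 10 genes were tested, 5 with a higher and 5 with a lower estimate (median -0.09), among them *Casp8*, its initiator caspase, at -0.47 ± 0.28 and *Ripk3*, a kinase of necroptosis, at -0.30 ± 0.34. In these 3 lists 0 genes reached an unadjusted p under 0.05, and 0 were called by edgeR or DESeq2 after adjustment.

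The p53 list and the list of cytokine receptors and kinases each held estimates in both directions. Of p53 and its targets 9 genes were tested, 3 with a higher and 6 with a lower estimate, with a median log2 fold change of -0.06. The list held none of the 10 members. *Pmaip1*, itself a p53 target (log2 fold change 2.41 ± 0.57), is thus not in these counts, nor is *Bax* (1.27 ± 0.62). The counts therefore do not cover all p53 targets. In this list *Sesn2*, a stress-induced regulator of growth signalling, had an unadjusted p of 0.039, with 8.795 and 8.69 TPM in old libraries and 4.11 and 4.995 TPM in young libraries (log2 fold change 1.03 ± 0.38, edgeR adjusted p = 0.831). *Bbc3*, also a p53 target, was too low to be tested. Of 14 cytokine receptors and kinases that sustain survival, 9 had a higher and 5 a lower estimate (median 0.08), and 0 reached an unadjusted p under 0.05. *Kit*, the receptor that marks ETP, was at 0.02 ± 0.31 and *Il2rg*, the chain shared by the interleukin 7 receptor, at -0.19 ± 0.25 on the log2 scale.

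The 9 NF-kappaB subunits and inhibitors all had a higher estimate in old ETP (background 46.6%). Their log2 fold changes had a median of 0.98, beside -0.03 over all tested genes. That median is the estimate of *Tnfaip3* (0.98 ± 1.02), which differed more within an age than between ages. The subunit genes *Nfkb1*, *Rel* and *Rela* had smaller estimates, at 0.31 ± 0.26, 0.48 ± 0.30 and 0.29 ± 0.29. An unadjusted p under 0.05 was reached by 3 of the 9 genes (background 4.65%), and 0 were called after adjustment by edgeR or DESeq2. *Nfkbie*, which encodes an inhibitor that is itself induced by NF-kappaB, was at 79.1 and 76.5 TPM in old libraries and 37.9 and 40.5 TPM in young libraries (log2 fold change 1.07 ± 0.27, edgeR adjusted p = 0.442). *Nfkb2*, the precursor of the p52 subunit, was at 26.1 and 23.5 TPM in old and 13.0 and 9.43 TPM in young libraries (1.19 ± 0.39, adjusted p = 0.715 in edgeR). *Relb*, the partner of p52, was at 16.9 and 11.95 TPM in old and 6.67 and 3.24 TPM in young libraries (1.55 ± 0.57, adjusted p = 0.830 in edgeR). For these 3 genes both old libraries lay above both young ones (background 16.1%). They were named for their small p between the same libraries, so this separation is no further evidence.

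**Figure D4:**
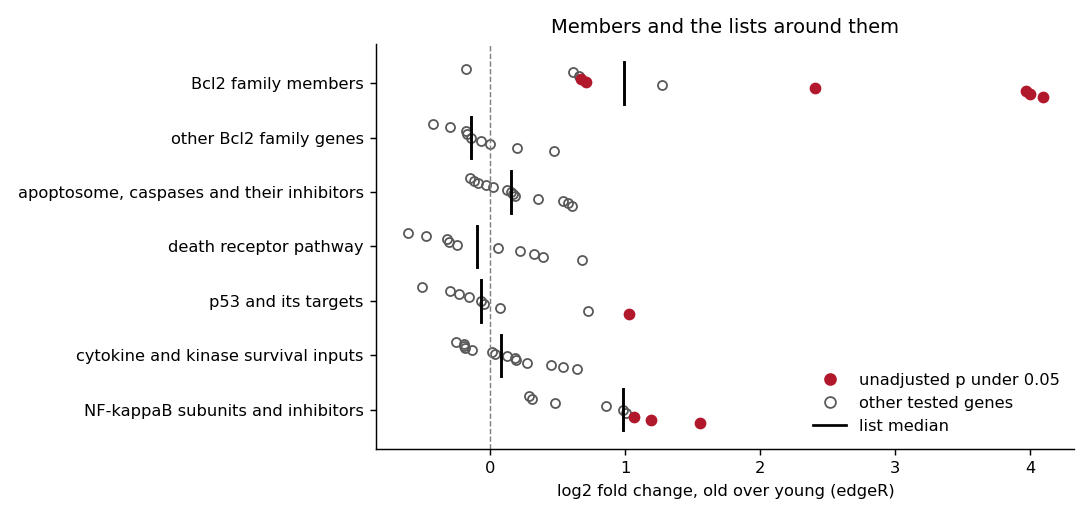
Log2 fold change, old over young, of the 10 members and of the tested genes in each list around them, with filled red points for an unadjusted p under 0.05 in edgeR and a black line at the list median. The members and the NF-kappaB list have medians of 0.99 and 0.98, and the medians of the other 5 lists lie between -0.14 and 0.16. Single genes of the NF-kappaB list range from 0.29 to 1.55.

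Markers of dendritic cells, and most tested markers of NK and innate lymphoid cells, also had higher estimates in old ETP. Of the 12 dendritic cell markers, 11 reached an unadjusted p under 0.05 (background 4.65%) and DESeq2 called 11 as higher (background 2.08%). Their median log2 fold change was 3.78. Old replicate 2 was the highest library both for their sum and for the *Bcl2a1* sum, at 36359 and 285 TPM. Among the young libraries the order differed, with more of the markers in young replicate 2 (2348 against 979 TPM) and slightly more *Bcl2a1* in young replicate 1 (12.8 against 10.5 TPM). The young order of *Bcl2a1* rests on only 71 and 18 fragments in replicates 1 and 2 and was not tested. *Pmaip1* was higher in replicate 1 of each age, and the marker sum in replicate 2. *Pmaip1* had 19.3 and 18.3 TPM in old and 4.84 and 2.08 TPM in young libraries. Most of the dendritic marker sum is *H2-Aa*, *H2-Ab1*, *H2-Eb1* and *Cd74*. Without them it was 350 and 1602 TPM in old and 71.5 and 138 TPM in young libraries. Of 12 markers of NK and innate lymphoid cells 6 were tested, 5 had a higher estimate and 4 were called by DESeq2 (background 2.08%). Their sum was 805 TPM in each old library and 683 and 818 TPM in young libraries. Most of this is *Nkg7*, and without it the sum was 152 and 301 TPM in old and 34.9 and 73.2 TPM in young libraries. *Tbx21*, a transcription factor that defines NK cells, was at 0 in both young libraries. The antibodies of the lineage gate included those to NK-1.1, a receptor of NK cells, and to CD3ε and CD8α. The part of these cell types in the values of the *Bcl2a1* copies, *Pmaip1* and the NF-kappaB genes was not tested. Markers of monocytes, macrophages and granulocytes overlapped between the ages, at 1489 and 817 TPM in old and 1927 and 1388 TPM in young libraries.

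**Figure D5:**
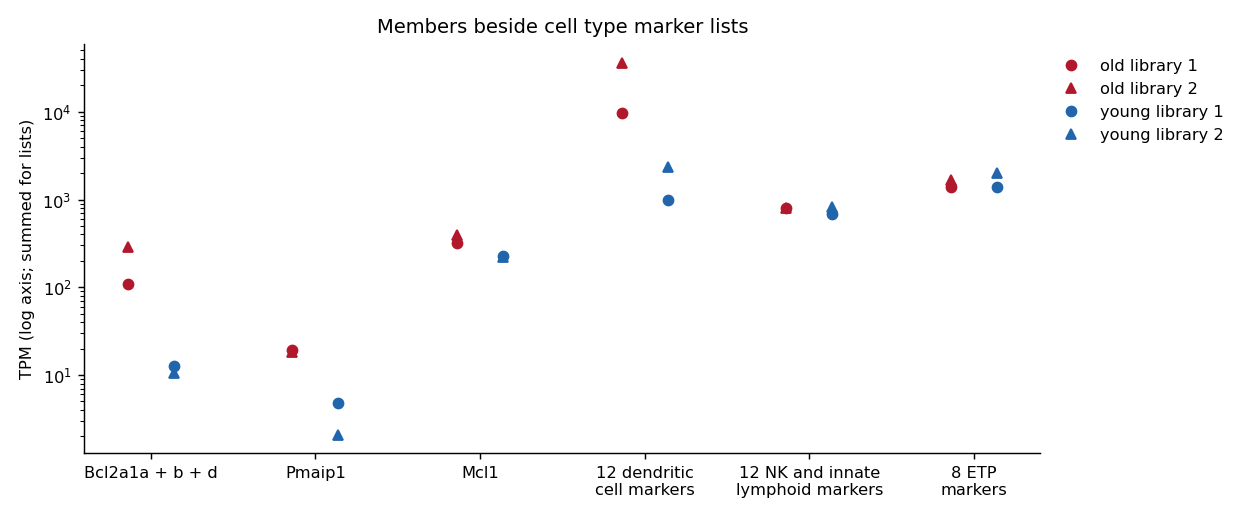
TPM on a log axis of the *Bcl2a1* sum, *Pmaip1*, *Mcl1* and 3 lists of cell type markers (summed) in each library, with old libraries (red) left of young libraries (blue). The *Bcl2a1* sum and the dendritic cell markers are both highest in old replicate 2, while *Pmaip1* is at 19.3 and 18.3 TPM in the old libraries and the ETP markers overlap between ages.

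Finally, the tested genes were ranked by how closely their pattern over the 4 libraries followed that of 3 members, as the Euclidean distance between centred log2 normalized CPM. With 4 libraries of 2 ages, many genes can have a short distance. The genes nearest to the *Bcl2a1* sum were *Traf1* (distance 0.26), *Ckb* (0.46) and *Gm6377* (0.47). *Traf1*, which encodes an adaptor of tumor necrosis factor receptors, had 22.4 and 52.5 normalized CPM in old libraries and 2.81 and 2.08 in young libraries. Among the genes nearest to *Pmaip1* were *Cenpv* (0.33) and *Cd28* (0.70). Nearest to *Bcl2* was *Vmp1* (0.05), with 212 and 340.3 normalized CPM in old libraries and 133 and 221 in young libraries, followed by *Slc25a24* (0.13) and *1700009P17Rik* (0.16). Each distance is on the log2 scale.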

How the data were processed

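RNA of sorted ETP was prepared with a Nugen Ovation kit and read from both ends. The authors aligned reads with STAR 2.3.0 to GRCm38. HTSeq 0.5.4p3, DESeq 1.12.1, Cuffdiff and Cufflinks 2.1.1 are further tools in the submitters' processing notes. The deposited estimated counts are fragments per gene, of which 96.0% to 96.6% per library were whole within 0.001. The deposited scaled signal multiplies them by a library factor and was used only to check that relation. The deposited FPKM are scaled by transcript length and kept a difference in depth, so they were brought to a sum of 1000000 per library (TPM). The sources used here do not state the treatment of strand or of reads with several alignments. The table numbers the libraries of an age 0 and 1, here replicates 1 and 2, and 0 columns of samples were left unused.

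Estimated counts were rounded, scaled by TMM and compared between ages in edgeR 4.0.16 (R 4.3.3) by the quasi-likelihood test with a single term for age, and p-values were adjusted by Benjamini-Hochberg and called below 0.05. A gene was tested where 2 or more libraries reached 1 FPKM. The SE is the size of the log2 fold change divided by the square root of the F statistic. The steps were tested on simulated counts. Alternatives were DESeq2 1.42.0, RLE and upper-quartile scaling, other filters, limma 3.58.1 on log2(FPKM + 1) and log2(FPKM + 0.1), the replicate number as a block, the *Bcl2a1* copies added together and leaving out each library. Promoters were aligned with MAFFT 7.526. Between the libraries of an age the chi-square per gene was 68.4 in old and 57.5 in young ETP, far above sampling noise.

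The members, the lists and the tests were chosen with earlier results of these data known. The rule for named genes took all 10 members, up to 3 genes of each list with the smallest unadjusted p under 0.05 or else its 2 genes of highest FPKM, and the 3 genes nearest in pattern to the *Bcl2a1* sum, *Pmaip1* and *Bcl2*. Of the genes so chosen, 1 is not reported here. Further genes were picked with their values in view. The limit behind a count of 0 was set at 3 counts (0.176 to 0.654 normalized CPM). Limits and intervals cover counting error only, since PCR copies of a molecule are not independent. Of 152 list symbols, 1 had no line in the table.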

Additional observations from a re-analysis of the deposited data

How the results depend on the processing

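Under the alternatives every estimate kept its direction except that of *Bcl2l1*, which was 0.24 on the log2 scale without young replicate 1 and ranged over -0.49 to 0.24 leaving out each library. The number of genes called was 0 under RLE and upper-quartile scaling, a minimum of 5 FPKM, limma with either pseudocount and the *Bcl2a1* copies added together. It was 225 with DESeq2 (210 higher, 15 lower) and 508 with no filter on low values (474 higher, 34 lower), each with 4 members called, the 3 *Bcl2a1* copies and *Pmaip1*, beside 2.77% of tested genes called as higher with no filter. Leaving out each library gave 0 to 221 genes and 0 to 3 members, with both highest counts without old replicate 1. A lone library of an age was taken to vary as those of the other age do. With the replicate number as a block, 777 genes were called (578 higher, 199 lower), and of the members 8, all but *Bcl2l1* and *Bcl2l11* (adjusted p = 0.056), where 5.73% of tested genes were called as higher. Libraries of the same number deviated together from their age means (correlation 0.73 across genes), but the labels do not say that a number pairs libraries. On log2(FPKM + 1) and log2(FPKM + 0.1) the median of all genes was -0.27 and -0.33, and *Mcl1* was at 0.43 on both. The low copy *Bcl2a1a* was at 1.80 and 3.12 on these scales. The difference in anti-apoptotic share was -2.84 percentage points without the *Bcl2a1* copies, 1.37 without *Bax* and *Bak1*, 2.37 with fragments per base of annotated exon (an alternative chosen after seeing the data), and -1.54 to 9.26 leaving out each library. The cause of these changes was not tested. The share with effective lengths was not run. A minimum of 5 FPKM left out *Bcl2l1*, *Bcl2a1a* and *Pmaip1*, which then gave no value. Depth limits the young values of the *Bcl2a1* copies most, at 3 to 41 fragments a library.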

Other observations

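Several genes linked to the family differed between the libraries of an age more than between ages. *Cdkn1a*, a p53 target that halts the cell cycle, was at 119.8 and 15.7 TPM in old libraries and 79.0 and 4.39 TPM in young libraries. *Tnfaip3*, an inhibitor of NF-kappaB signalling, was at 134 and 38.7 TPM in old libraries and 75.4 and 13.6 TPM in young libraries. *Il7r*, the interleukin 7 receptor, was at 18.1 and 81.7 normalized CPM in old libraries and 30.5 and 82.8 normalized CPM in young libraries. For these genes the edgeR estimates were 0.72 ± 1.43, 0.98 ± 1.02 and -0.19 ± 0.80 on the log2 scale, and none passed adjustment (adjusted p = 0.999 for each).

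The CD3 subunit gene *Cd3e* was not called by edgeR (adjusted p = 0.379) and was called by DESeq2 (adjusted p = 0.0014), while *Cd4* and *Rag2*, also genes of later thymocytes, had log2 fold changes of -0.77 ± 0.45 and -1.16 ± 0.51 (edgeR, adjusted p = 0.999 and 0.977).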
